A study of Mus musculus with 12 samples.

Results

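The 106 genes described here were selected on a valley-shaped profile in CD11c cells from inguinal lymph nodes of mice. Their RNA was lower in nodes that drained a tumor than in healthy nodes, and higher again in draining nodes of mice that received a CD40 agonist. They were taken from 21872 protein-coding genes. For each gene the deposited transcript counts were added up and scaled to 1000000 counts per library (CPM), and log2(CPM + 1) was compared between libraries that share a title prefix, a number that opens each library's title and occurs once in every group. A gene was a member if the tumor-draining library was below the healthy library in all 4 prefixes with a mean difference of at most -0.4, and the agonist library was above the tumor-draining library in all 4 with a mean difference of at least 0.4. The members were thus chosen by both measured differences, which are given as description and carry no test on the members.

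The same 4 tumor-draining libraries enter both conditions, with opposite signs. A gene whose tumor-draining values happened to read low by error alone therefore met both conditions more easily, and the list is biased toward such genes. The mirrored rule, with the tumor-draining libraries above both other groups by the same margins, was met by 115 genes. Another 583 genes met the signs of the rule in all 4 prefixes but not its size. All 106 members passed the filter on low counts, as did 15823 protein-coding genes and 23729 genes of every type.

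The 3 groups of 4 libraries were CD11c cells of tumor-draining nodes with CD40 agonist, CD11c cells of tumor-draining nodes without it, and CD11c cells of healthy nodes. The tumor was a subcutaneous KPC tumor, a mouse model of pancreatic cancer. They are called agonist, tumor-draining and healthy libraries, and their replicates 1 to 4 are the 4 title prefixes. The sources used here do not give agonist dose and timing, any mock treatment of the other mice, strain, age or the purity of the cells. Nor do they state that each library came from its own animal, so p-values measure only the spread between these libraries, which may be technical. Libraries held 32626784 to 56320661 estimated counts, and a level of 1 CPM stands for 1 in 1000000 of them. Itgax, which encodes CD11c, had 664 to 839 CPM in the agonist libraries, 816 to 1040 CPM in the tumor-draining libraries and 709 to 1075 CPM in the healthy libraries. The summed level of 6 general dendritic cell markers, Itgax among them, was lowest in the agonist libraries without overlap, at 12810 to 16960 CPM. It was 19930 to 28440 CPM in the tumor-draining libraries and 20170 to 28750 CPM in the healthy libraries. The part of dendritic cell content in the members' profile was not tested. Cd40, the receptor of the agonist, had 135 to 161 CPM in the agonist libraries, 97.0 to 154 CPM in the tumor-draining libraries and 104 to 150.2 CPM in the healthy libraries. None of the listed markers of other cell types was at 0 in every library.

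CD11c marks dendritic cells, which take up antigen in tissue, migrate to the draining node and present it to T cells, and it is also found on some macrophages and lymphocytes. CD40 on dendritic cells is engaged by CD40 ligand on helper T cells, and an agonist antibody takes the place of that ligand. Activated dendritic cells display interleukin-15 bound to interleukin-15 receptor alpha on their surface, which sustains natural killer cells and CD8 T cells. These lymphocytes in turn release chemokines and granule proteins, among them XCL1, the ligand of a receptor on type 1 dendritic cells, and perforin, which forms pores in target cells.

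The members comprised genes of cytotoxic and innate-like lymphocytes (Xcl1, Prf1, Gzmc, Nkg7, Ncr1, Klrc1, Cxcr6, Il23r, Zap70, Crtam, Sytl3). Others were the chemokine gene Ccl5 and the interleukin-15 ligand and receptor pair (Il15, Il15ra). Further members were well-counted genes of the cytoskeleton and of intracellular signaling (Net1, Synpo2, Adcy6, Cblb, Strip2, Akap2) and receptors of node macrophages (Marco, Cd209b). The rest included subunits of voltage-gated channels and a long tail at low levels. Over the 106 members the median within-prefix difference on the log2(CPM + 1) scale was 0.61 for agonist minus tumor-draining (0.41 to 1.94) and -0.56 for tumor-draining minus healthy (-1.53 to -0.40). Over the 15823 protein-coding genes tested these medians were -0.01 and -0.01. The mean level of a member over the 12 libraries ran between 0.731 and 573 CPM with a median of 7.06 CPM, against a median of 15.6 CPM over the protein-coding genes tested. Of the members, 13 averaged at least 100 CPM, 31 lay between 10 and 100 CPM, 45 between 2 and 10 CPM, and 17 under 2 CPM. The tumor-draining libraries lay below every agonist and every healthy library, with no overlap, in 10 members (Arhgef12, Edaradd, Gzmc, Il23r, Marco, Rhbdl1, Scn4b, Sec14l2, Sytl3 and Wnt6). Among the protein-coding genes tested 0.228% did so, and since the rule used these values nothing is read from the count. In the other members libraries of different prefixes overlapped between groups.

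**Figure D1:**
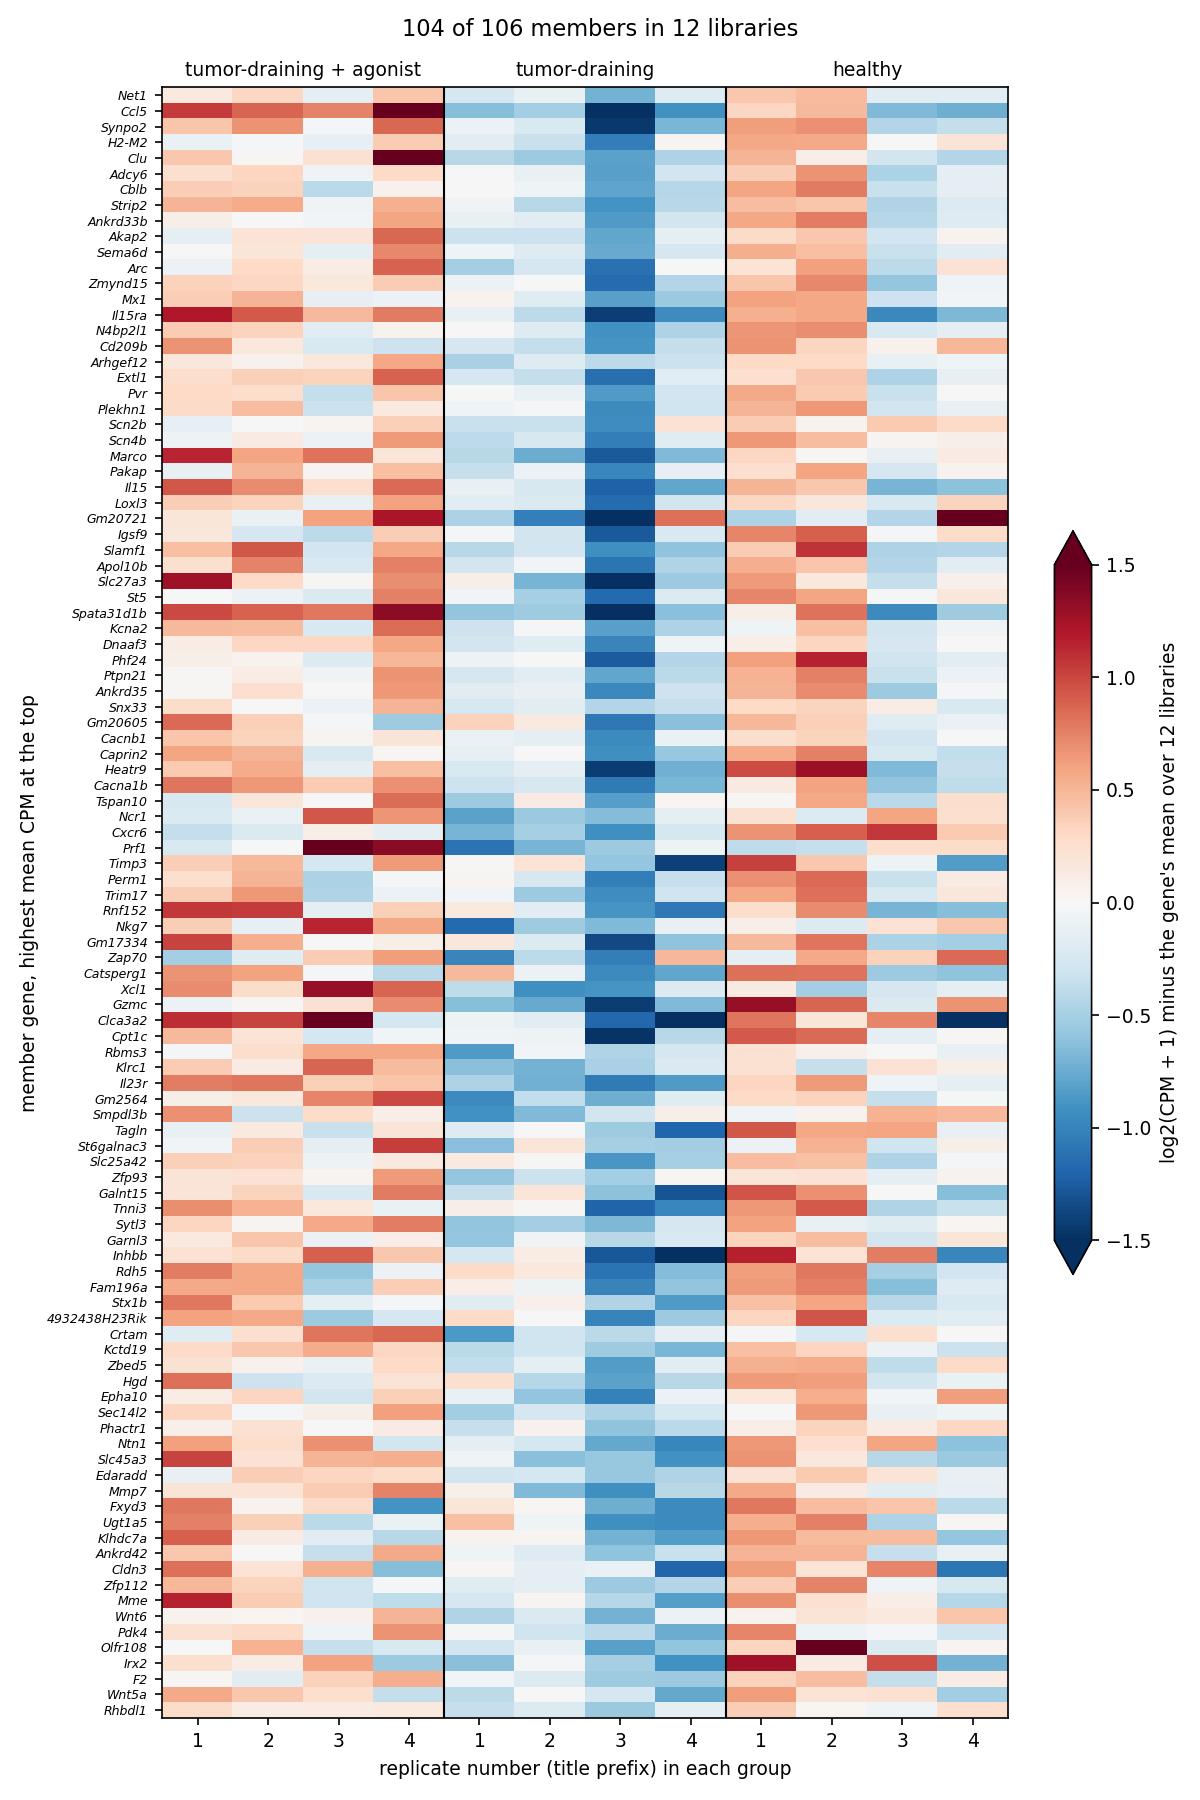
Level of each of 104 of the 106 members (rows, highest mean CPM at the top) in the 12 libraries (columns, replicates 1 to 4 of the agonist, tumor-draining and healthy groups), as log2(CPM + 1) minus the mean of the gene over the 12 libraries. Within each replicate number the tumor-draining value is below both others by the choice of the members. Replicate 3 of the tumor-draining group holds the lowest of the 12 values in 72 of the 106 members. By the rule the lowest value is always in a tumor-draining library. The same count over all protein-coding genes is not given, so nothing is read from it.

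The lymphocyte members are introduced by their promoters, because 4 of the windows can be read beside the values and carry the core motif bound by RUNX factors, transcription factors of lymphocyte development. The windows run over 250 bases before and 50 bases after the RefSeq start, on build GRCm38.p6, and are written 5′ to 3′ along the gene. They are Ncr1 (chr7:4337465-4337764, plus strand), Nkg7 (chr7:43436888-43437187, plus strand), Prf1 (chr10:61297586-61297885, plus strand) and Xcl1 (chr1:164935473-164935772, minus strand). Capitals mark TGTGGT or its reverse complement ACCACA, which begin at -176 and -41 in Ncr1, -83 in Nkg7, -130 in Prf1 and -227 in Xcl1, counted from the start.
Ncr1: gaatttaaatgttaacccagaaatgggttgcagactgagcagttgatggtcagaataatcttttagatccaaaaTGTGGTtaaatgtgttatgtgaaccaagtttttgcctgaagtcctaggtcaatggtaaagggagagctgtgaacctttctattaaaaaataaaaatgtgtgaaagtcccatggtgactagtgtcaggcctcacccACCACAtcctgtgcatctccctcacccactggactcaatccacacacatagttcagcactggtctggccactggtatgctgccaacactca
Nkg7: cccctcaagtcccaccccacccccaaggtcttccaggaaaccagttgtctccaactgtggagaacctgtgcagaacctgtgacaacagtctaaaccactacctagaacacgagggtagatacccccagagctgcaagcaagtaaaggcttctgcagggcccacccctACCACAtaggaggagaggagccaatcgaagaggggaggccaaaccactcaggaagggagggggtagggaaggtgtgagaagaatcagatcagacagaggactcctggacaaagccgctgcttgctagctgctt
Prf1: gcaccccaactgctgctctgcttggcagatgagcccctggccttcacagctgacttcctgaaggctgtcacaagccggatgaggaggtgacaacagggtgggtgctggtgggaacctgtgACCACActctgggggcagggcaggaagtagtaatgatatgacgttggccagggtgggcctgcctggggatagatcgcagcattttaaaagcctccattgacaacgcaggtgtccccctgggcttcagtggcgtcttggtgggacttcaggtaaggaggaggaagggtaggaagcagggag
Xcl1: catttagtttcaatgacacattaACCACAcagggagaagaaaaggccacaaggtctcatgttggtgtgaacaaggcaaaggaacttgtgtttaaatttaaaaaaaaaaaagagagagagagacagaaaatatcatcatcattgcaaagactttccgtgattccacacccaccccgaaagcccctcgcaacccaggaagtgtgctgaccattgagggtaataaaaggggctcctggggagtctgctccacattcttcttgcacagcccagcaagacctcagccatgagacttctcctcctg
The motif, searched on both strands, occurred in 16.9% of the 27025 genes with a window in the RefSeq table and in 18.3% of the members that have one, 15 of 82. Of the 10 lymphocyte members with a window 8 held it (Cxcr6, Gzmc, Klrc1, Ncr1, Nkg7, Prf1, Sytl3 and Xcl1) and Il23r and Zap70 did not. Without Klrc1, Sytl3 and Crtam, which were not in the gene lists, it was 6 of 8. The motif and the grouping were chosen after the values were seen, and a match describes letters in the window, not a bound site.

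Chemokines were among the members with the largest differences. Ccl5, a chemokine that draws T cells and other leukocytes, had 752, 665, 608 and 1030 CPM in agonist libraries, 232, 255, 125 and 193 CPM in tumor-draining libraries and 449.5, 508, 229.6 and 217 CPM in healthy libraries (replicates 1 to 4 in each). Every agonist library was above every library of both other groups, and the tumor-draining libraries overlapped the lowest healthy ones. The mean difference on the log2(CPM + 1) scale was 1.94 ± 0.48 for agonist minus tumor-draining and -0.74 ± 0.39 for tumor-draining minus healthy (SD, n = 4 prefixes). Scaled for transcript length, Ccl5 averaged 1821 TPM in the agonist libraries, 474 TPM in the tumor-draining libraries and 820.3 TPM in the healthy libraries. Xcl1, the chemokine for type 1 dendritic cells, had 9.25, 6.61, 14.5 and 10.5 CPM in agonist libraries, 3.81, 2.33, 2.42 and 4.46 CPM in tumor-draining libraries and 5.88, 3.402, 4.27 and 4.69 CPM in healthy libraries. The agonist libraries were all above both other groups, while the tumor-draining and healthy libraries overlapped, and its tumor-draining minus healthy difference of -0.40 ± 0.25 lay only just inside the limit of the rule. In such bulk samples fewer cells of a type and less RNA per cell cannot be told apart.

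The killing genes among the members encode perforin, a granzyme and a granule membrane protein. Prf1, perforin, had 6.08, 7.305, 22.4 and 20.2 CPM in agonist libraries, 2.85, 4.096, 4.67 and 6.86 CPM in tumor-draining libraries and 5.35, 5.52, 8.96 and 8.99 CPM in healthy libraries. Agonist replicates 3 and 4 were the highest, and agonist replicates 1 and 2 overlapped the healthy libraries. Gzmc, a granzyme, had 4.698, 5.12, 6.09 and 8.83 CPM in agonist libraries, 2.87, 2.57, 1.24 and 2.81 CPM in tumor-draining libraries and 13.9, 10.02, 4.21 and 8.599 CPM in healthy libraries, so that all 4 tumor-draining libraries were below all libraries of both other groups and the healthy libraries were on average the highest. Its tumor-draining minus healthy difference of -1.53 ± 0.33 was the largest of the members. Nkg7, a protein of the cytotoxic granule membrane, had 8.51, 5.76, 15.2 and 9.97 CPM in agonist libraries, 2.27, 4.07, 3.62 and 5.79 CPM in tumor-draining libraries and 6.82, 5.36, 7.54 and 8.68 CPM in healthy libraries. Its agonist minus tumor-draining difference was 1.11 ± 0.67, and the tumor-draining libraries overlapped both other groups.

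Of the receptors, Ncr1, the activating natural killer receptor NKp46, had 7.04, 7.699, 16.9 and 13.8 CPM in agonist libraries, 4.36, 5.37, 4.97 and 7.504 CPM in tumor-draining libraries and 9.904, 7.11, 13.1 and 10.02 CPM in healthy libraries. The tumor-draining libraries were low in every prefix, and replicates 3 and 4 were higher than replicates 1 and 2 in the agonist group. Klrc1, which encodes the inhibitory receptor NKG2A, had 6.66, 5.38, 9.73 and 7.14 CPM in agonist libraries, 2.79, 2.58, 3.18 and 4.03 CPM in tumor-draining libraries and 5.86, 3.61, 5.81 and 5.23 CPM in healthy libraries. Cxcr6, the receptor of CXCL16 on resident and memory-type T cells, had 6.02, 6.71, 8.57 and 7.12 CPM in agonist libraries, 4.53, 5.34, 3.75 and 6.49 CPM in tumor-draining libraries and 13.4, 15.7, 17.7 and 10.8 CPM in healthy libraries, with every healthy library above every agonist and tumor-draining library. Il23r, a receptor chain of interleukin-17-producing T cells and innate lymphocytes, had 8.51, 8.74, 6.204 and 6.47 CPM in agonist libraries, 3.06, 2.401, 1.69 and 2.11 CPM in tumor-draining libraries and 6.02, 7.72, 4.38 and 4.07 CPM in healthy libraries. Its tumor-draining libraries did not overlap either other group and its agonist minus tumor-draining difference was 1.36 ± 0.14. Zap70, the kinase of the T cell receptor, had 3.66, 4.89, 7.64 and 9.25 CPM in agonist libraries, 2.34, 4.07, 2.24 and 8.39 CPM in tumor-draining libraries and 5.03, 8.83, 7.43 and 11.01 CPM in healthy libraries, with wide overlap between all 3 groups. Klrc1 and Gzmc belong to families of near-identical neighbors, between which reads may be split, so their counts are uncertain.

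The wider lists to which these genes belong held 1 to 5 members each. Of 11 cytotoxic effector genes tested, 5 were members (Ccl5, Gzmc, Nkg7, Prf1 and Xcl1) and 8 had both mean differences signed as in the rule. The list's median difference was 1.25 for agonist minus tumor-draining and -0.40 for tumor-draining minus healthy. This is a description, since the rule chose the 5 members by these same differences. Gzmb, granzyme B, was no member: it had 6.505, 8.86, 20.3 and 14.9 CPM in agonist libraries, 2.96, 2.73, 2.38 and 3.06 CPM in tumor-draining libraries and 3.44, 1.78, 3.696 and 2.43 CPM in healthy libraries, and its tumor-draining and healthy libraries overlapped. The summed level of the cytotoxic list was 720.1 to 1120 CPM in the agonist libraries, 163 to 289 CPM in the tumor-draining libraries and 266 to 545 CPM in the healthy libraries, with Ccl5 the largest part. Ccl5 alone had 608 to 1030 CPM, 125 to 255 CPM and 217 to 508 CPM in the same order. Which cells the Ccl5 RNA came from was not tested. Of 12 natural killer cell markers Ncr1 was the member, and 9 had both mean differences signed as in the rule. The median difference over the 12 was 0.34 for agonist minus tumor-draining and -0.40 for tumor-draining minus healthy. Their summed level overlapped in all 3 groups, at 140.4 to 224 CPM in the agonist libraries, 151 to 185 CPM in the tumor-draining libraries and 165 to 213 CPM in the healthy libraries. Of 15 T cell markers only Zap70 was a member, and only 3 had both mean differences signed as in the rule. The median difference over the 15 was -0.15 for agonist minus tumor-draining and -0.80 for tumor-draining minus healthy. Their summed level was 342 to 590.2 CPM in the agonist libraries, 394 to 619 CPM in the tumor-draining libraries and 474 to 663 CPM in the healthy libraries. Of 11 innate-like T cell markers tested Cxcr6 and Il23r were members, and 10 had both mean differences signed as in the rule. The summed level of this list was lowest in the tumor-draining group without overlap, at 56.4 to 63.4 CPM. It was 70.8 to 91.7 CPM in the agonist libraries and 85.0 to 105 CPM in the healthy libraries. None of these markers was at 0 in all libraries, and the part of lymphocyte content in the members' profile was not tested.

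**Figure D2:**
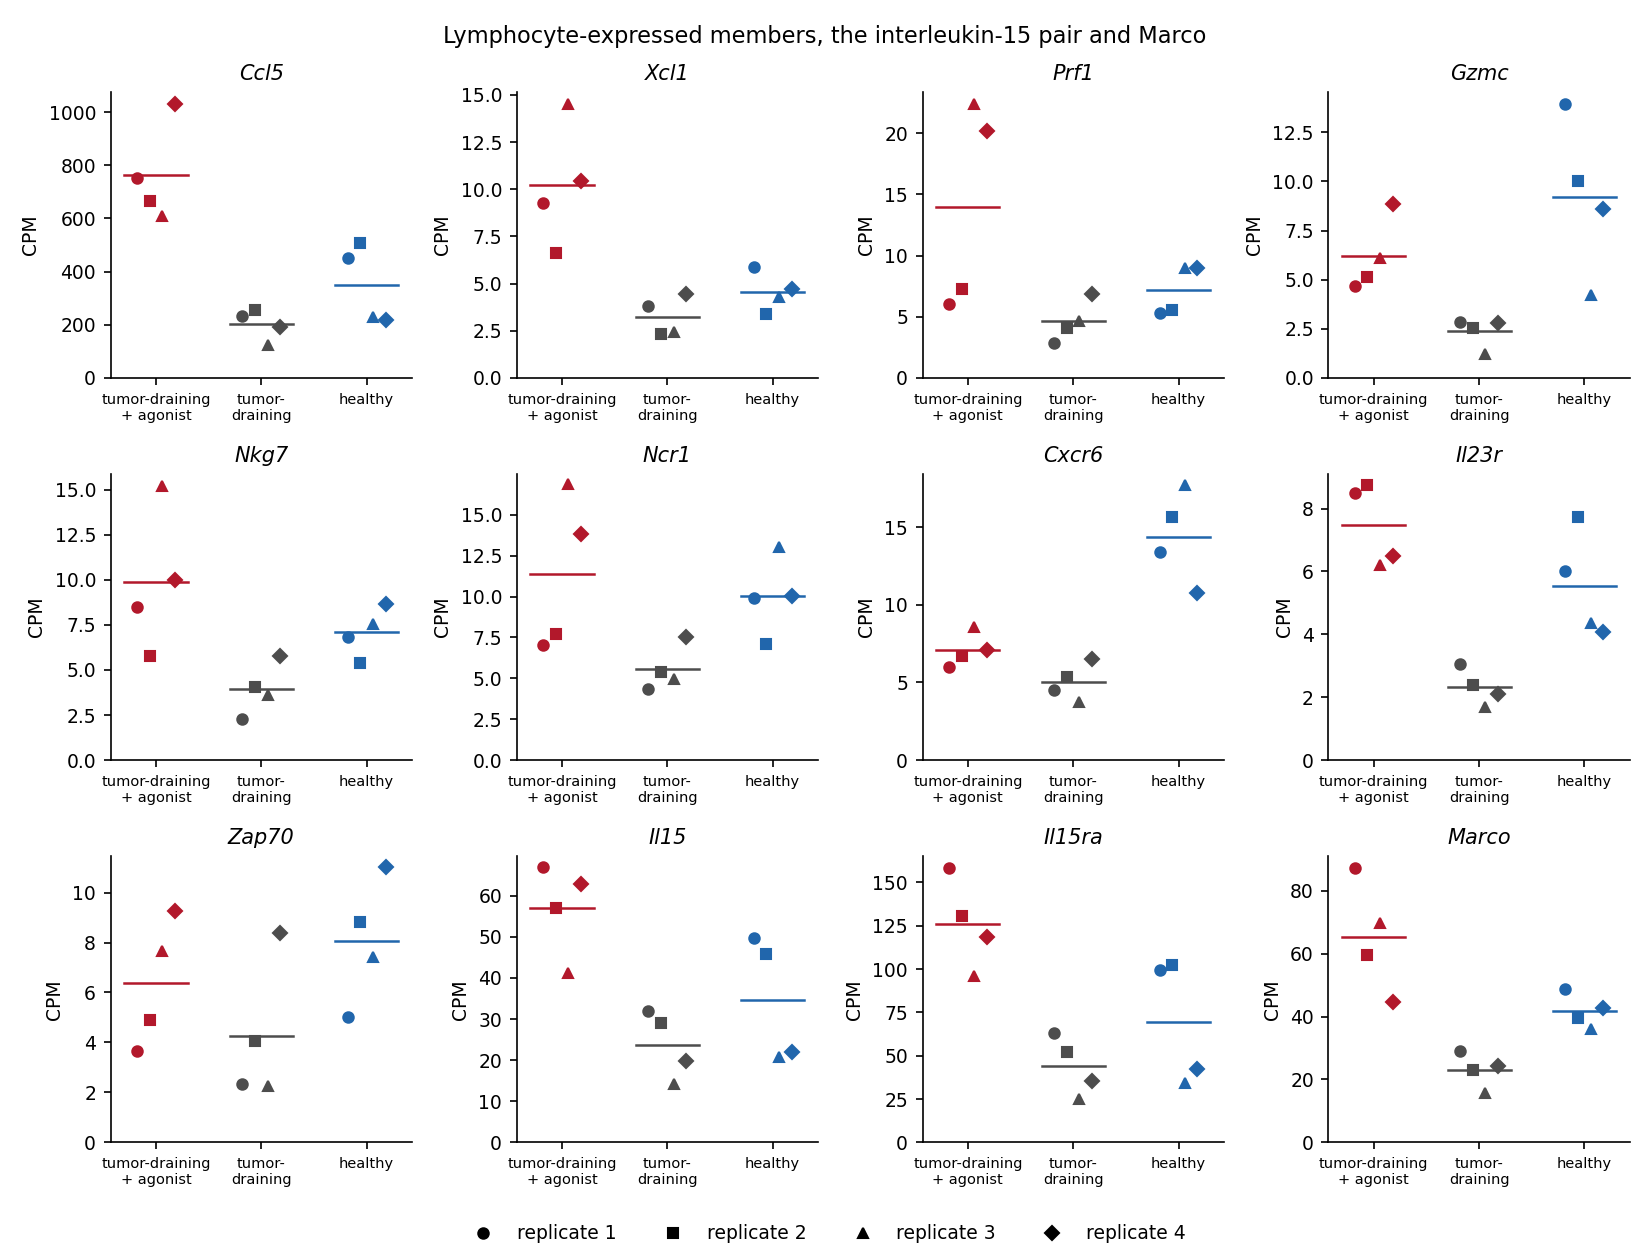
CPM of 12 members in each library by group (agonist, tumor-draining, healthy); points are libraries, their shapes are replicates 1 to 4, and lines are group means. In Ccl5 and Xcl1 all 4 agonist points lie above all others, in Gzmc, Il23r and Marco all 4 tumor-draining points lie below all others, and in Cxcr6 all 4 healthy points lie above all others.

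Both genes of the interleukin-15 pair were members. Il15, the cytokine, had 66.95, 57.1, 41.3 and 62.9 CPM in agonist libraries, 31.9, 29.1, 14.3 and 19.8 CPM in tumor-draining libraries and 49.8, 45.9, 20.9 and 22.1 CPM in healthy libraries. Il15ra, the receptor chain that presents it, had 158, 130.5, 95.9 and 118 CPM in agonist libraries, 63.4, 52.1, 25.1 and 35.2 CPM in tumor-draining libraries and 99.6, 102, 34.4 and 42.5 CPM in healthy libraries. In both genes each agonist library lay above the healthy library of its own prefix, no agonist library overlapped a tumor-draining library, and the tumor-draining and healthy libraries overlapped across prefixes. The agonist minus tumor-draining difference was 1.27 ± 0.32 for Il15 and 1.56 ± 0.30 for Il15ra, and the tumor-draining minus healthy difference was -0.48 ± 0.23 for Il15 and -0.58 ± 0.30 for Il15ra. The most counted transcript of Il15 held 30.1% of the gene's counts in the agonist group, 27.7% in the tumor-draining group and 24.8% in the healthy group, and that of Il15ra held 28.6% in the agonist group, 31.7% in the tumor-draining group and 35.7% in the healthy group. Of 8 receptor chains of the common gamma chain cytokines Il15ra was the only member. Il2rb, the chain that natural killer and T cells use to receive interleukin-15, had 24.1, 23.6, 65.5 and 58.3 CPM in agonist libraries, 11.3, 19.4, 20.4 and 37.6 CPM in tumor-draining libraries and 25.2, 21, 35.3 and 36.4 CPM in healthy libraries, the highest values being agonist replicates 3 and 4.

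The best-counted members included genes of the cytoskeleton and of signaling. Net1, an exchange factor for the GTPase RhoA, had 616, 692, 502 and 742 CPM in agonist libraries, 469, 516, 340.1 and 488 CPM in tumor-draining libraries and 736, 775, 496 and 501 CPM in healthy libraries. The mean difference was 0.50 ± 0.10 for agonist minus tumor-draining and -0.45 ± 0.28 for tumor-draining minus healthy, and the most counted of its transcripts held 70.2% of the gene's counts in the agonist group, 70.1% in the tumor-draining group and 69.8% in the healthy group. Synpo2, an actin-binding protein, had 392, 468, 289 and 535 CPM in agonist libraries, 275, 251, 107 and 182 CPM in tumor-draining libraries and 452, 472, 216 and 229 CPM in healthy libraries. All its agonist libraries exceeded all its tumor-draining libraries, while the healthy libraries split into 2 high (replicates 1 and 2) and 2 low ones.

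Clu, the secreted chaperone clusterin, had 299.8, 231, 267 and 732 CPM in agonist libraries, 169.9, 155, 129.5 and 165 CPM in tumor-draining libraries and 325, 244, 187 and 167 CPM in healthy libraries. Agonist replicate 4 stood far above the rest, and the agonist minus tumor-draining difference ran between 0.57 and 2.15 over the prefixes. H2-M2, a nonclassical major histocompatibility complex class I gene, had 274, 291, 271 and 384 CPM in agonist libraries, 264, 234, 143 and 302 CPM in tumor-draining libraries and 443, 437, 295 and 337 CPM in healthy libraries, with the agonist libraries overlapping the tumor-draining ones. Cblb, a ubiquitin ligase that restrains lymphocyte activation, had 246, 242, 144 and 199.5 CPM in agonist libraries, 191, 182, 109 and 141 CPM in tumor-draining libraries and 287, 326, 151 and 172 CPM in healthy libraries, and its agonist minus tumor-draining difference of 0.41 ± 0.06 was the steadiest over prefixes among the members. Strip2, a subunit of a phosphatase complex, had 251, 259.6, 170.1 and 256 CPM in agonist libraries, 169.7, 132, 94.2 and 131 CPM in tumor-draining libraries and 242, 236, 128 and 152 CPM in healthy libraries, and Arc, a cytoskeletal protein best known from neurons, had 93.8, 123, 108 and 184 CPM in agonist libraries, 69.6, 83.3, 45.2 and 100.2 CPM in tumor-draining libraries and 114, 153, 75.7 and 116 CPM in healthy libraries.

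Adcy6 (adenylyl cyclase), Ankrd33b, Akap2 (an anchor of protein kinase A) and Sema6d (a semaphorin) had agonist minus tumor-draining differences of 0.51 ± 0.22, 0.51 ± 0.38, 0.66 ± 0.40 and 0.51 ± 0.38. Akap2 and Pakap are both members but overlap on the same strand of chromosome 4, so reads of one can be counted for the other. Slamf1, a receptor of activated lymphocytes and dendritic cells, and Pvr, a ligand of lymphocyte receptors, had agonist minus tumor-draining differences of 0.97 ± 0.28 and 0.47 ± 0.18.

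Summed levels of migratory dendritic cell markers were highest in the agonist libraries. None of the 12 migratory markers was a member, although 10 had both mean differences signed as in the rule. The median difference over the 12 was 0.75 for agonist minus tumor-draining and -0.19 for tumor-draining minus healthy. Their summed level was 5462 to 8288 CPM in the agonist libraries, 2336 to 3885 CPM in the tumor-draining libraries and 2787 to 4909 CPM in the healthy libraries. Ccr7, the homing receptor of migratory cells, had 648, 784, 639 and 896 CPM in agonist libraries, 248, 257, 178 and 254 CPM in tumor-draining libraries and 409, 426, 194 and 245 CPM in healthy libraries, and was no member, with tumor-draining above healthy in replicate 4 and a tumor-draining minus healthy mean of -0.38. Its part, and that of the share of migratory cells, in the members' profile was not tested.

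Among node macrophage genes, Marco, a scavenger receptor, had 87.3, 59.5, 69.6 and 44.6 CPM in agonist libraries, 28.96, 22.98, 15.7 and 24.4 CPM in tumor-draining libraries and 48.8, 39.6, 36.2 and 42.8 CPM in healthy libraries. All 4 tumor-draining libraries were below all others, and agonist replicate 4 lay within the range of the healthy libraries. Cd209b, a lectin of macrophages at the node's sinuses and of the splenic marginal zone, had 111, 77.3, 58.99 and 55.5 CPM in agonist libraries, 57.9, 53.6, 36.9 and 53.7 CPM in tumor-draining libraries and 111, 87.01, 72.4 and 98.1 CPM in healthy libraries, with all tumor-draining libraries below all healthy ones and the agonist libraries between and beyond. Cd209b has close paralogs on the same chromosome, and its count is uncertain in that respect. Marco was the only member of 12 node macrophage markers. Their summed level was 1607 to 2291 CPM in the agonist libraries, 879 to 1357 CPM in the tumor-draining libraries and 810.2 to 1155 CPM in the healthy libraries, so the agonist libraries were the highest and the tumor-draining and healthy ranges overlapped. Siglec1, the sialoadhesin of sinus macrophages, had 142, 118, 246 and 145 CPM in agonist libraries, 37.5, 47.5, 46.3 and 49.7 CPM in tumor-draining libraries and 42.3, 48.9, 40.6 and 52.1 CPM in healthy libraries, and Cd163 had 3.04, 3.24, 1.82 and 5.36 CPM in agonist libraries, 11.01, 8.08, 7.58 and 12.1 CPM in tumor-draining libraries and 22.6, 16.1, 23.8 and 17.99 CPM in healthy libraries.

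Mx1, an interferon-induced GTPase, was the only member of 18 type I interferon response genes. It had 105, 117, 74.5 and 76.2 CPM in agonist libraries, 84.7, 71.6, 45.8 and 55.2 CPM in tumor-draining libraries and 125, 122, 65.4 and 79.4 CPM in healthy libraries. The tumor-draining minus healthy difference of Mx1 was -0.58 ± 0.12, while the list's median was 0.89. The list's median agonist minus tumor-draining difference was 0.72, against 0.54 ± 0.19 for Mx1. Isg15, a ubiquitin-like protein of the same list, had 27.8, 25.7, 32.3 and 22.2 CPM in agonist libraries, 16, 12.5, 17.4 and 11.5 CPM in tumor-draining libraries and 5.83, 4.303, 7.19 and 8.43 CPM in healthy libraries, so its tumor-draining libraries lay above all its healthy ones.

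Of 41 voltage-gated channel subunits tested 5 were members, a family picked out after the values were seen. Scn4b and Scn2b, sodium channel beta subunits, are 8324 bases apart on the same strand of chromosome 9. Scn4b had 42.8, 48.98, 42.5 and 70.7 CPM in agonist libraries, 34.1, 38.05, 21.5 and 39.6 CPM in tumor-draining libraries and 71.4, 62.6, 46.3 and 48.1 CPM in healthy libraries, and the tumor-draining libraries were below all others. Scn2b had 43.02, 47.1, 48.1 and 60.3 CPM in agonist libraries, 37.1, 36.9, 24.1 and 54.5 CPM in tumor-draining libraries and 61.3, 48.7, 61.7 and 57.7 CPM in healthy libraries, where tumor-draining replicate 4 lay within the range of both other groups. Cacna1b, a pore subunit of N-type calcium channels, had 16.2, 14.5, 11.9 and 14.9 CPM in agonist libraries, 6.98, 7.32, 3.75 and 5.12 CPM in tumor-draining libraries and 9.82, 13.9, 5.56 and 6.59 CPM in healthy libraries, and Kcna2, a potassium channel subunit, had 32.1, 31.8, 19.2 and 41.3 CPM in agonist libraries, 18.04, 22.4, 12.5 and 16.1 CPM in tumor-draining libraries and 21.6, 31.5, 18.5 and 21.9 CPM in healthy libraries. Cacnb1, a calcium channel beta subunit, had an agonist minus tumor-draining difference of 0.57 ± 0.30. The median over the 41 subunits was 0.04 for agonist minus tumor-draining and -0.17 for tumor-draining minus healthy.

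Besides Scn2b with Scn4b and Pakap with Akap2, further pairs of members were neighbors in the order of members along a chromosome and at most 100 kb apart. Heatr9 and Ccl5 lie 3602 bases apart on the minus strand of chromosome 11, Perm1 and Plekhn1 lie 148 bases apart on opposite strands of chromosome 4, Olfr108 and H2-M2 lie 34333 bases apart on chromosome 17, and Tnni3 and Dnaaf3 overlap on the minus strand of chromosome 7. Heatr9 had 11.9, 13.5, 7.99 and 12.5 CPM in agonist libraries, 7.42, 8.01, 2.68 and 4.98 CPM in tumor-draining libraries and 18.5, 22.96, 5.24 and 6.81 CPM in healthy libraries, which differs from Ccl5 in that agonist and healthy libraries overlapped. The sources used here do not say whether counts were assigned by strand, so values of overlapping genes cannot be fully told apart.

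Secreted and developmental factors were among the members with low counts. Inhbb, a subunit of activins, had 3.49, 3.71, 6.17 and 4.11 CPM in agonist libraries, 2.22, 3.18, 0.604 and 0.331 CPM in tumor-draining libraries and 7.64, 3.46, 5.59 and 0.967 CPM in healthy libraries. Its levels differed more within the tumor-draining and healthy groups than within the agonist group, and its tumor-draining minus healthy difference was -1.03 ± 0.87. Wnt6, a Wnt ligand, had 1.32, 1.299, 1.34 and 2.21 CPM in agonist libraries, 0.651, 0.942, 0.373 and 1.12 CPM in tumor-draining libraries and 1.33, 1.56, 1.49 and 1.995 CPM in healthy libraries, and its tumor-draining libraries lay below all others. Ntn1 (netrin-1), Galnt15 (a glycosyltransferase), Timp3 (a metalloproteinase inhibitor) and Wnt5a had agonist minus tumor-draining differences of 0.86 ± 0.41, 0.79 ± 0.87, 0.75 ± 0.86 and 0.57 ± 0.27.

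Of the metabolic and transport genes Slc27a3, a fatty acid transport protein, had 53.1, 26.5, 21.7 and 35.2 CPM in agonist libraries, 22.8, 12.8, 6.09 and 14.4 CPM in tumor-draining libraries and 33.8, 24.1, 16.5 and 22.6 CPM in healthy libraries, with replicate 1 the highest in each group. Slc45a3 and Slc25a42 were the other members among 288 solute carriers tested, with agonist minus tumor-draining differences of 1.11 ± 0.25 and 0.49 ± 0.27. Zfp112 and Zfp93 were the members among 378 zinc finger Zfp genes tested, at 0.45 ± 0.18 and 0.62 ± 0.11, and Olfr108 was the member among 443 olfactory receptors tested, at 0.44 ± 0.15. The lists of B cell, plasma cell, neutrophil, monocyte, plasmacytoid, type 1 and type 2 dendritic cell, stromal, keratinocyte, erythroid and mast cell markers held no member, and the type 1 dendritic cell markers had a median difference of -0.81 for agonist minus tumor-draining. The medians of the solute carrier, Zfp and olfactory receptor families lay between -0.09 and 0.01 for agonist minus tumor-draining. Spata31d1b, a gene known from testis, had 40.1, 37.4, 34.9 and 51.6 CPM in agonist libraries, 12.8, 13.3, 5.58 and 12.4 CPM in tumor-draining libraries and 21.03, 35.4, 9.66 and 13.3 CPM in healthy libraries, with every agonist library above every tumor-draining one, and it has close paralogs.

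At the edge of the rule, Xcl1 and Rnf152 were among the nearest members inside, with tumor-draining minus healthy means of -0.4008 and -0.401. The nearest genes outside were Cd160 at -0.3988 and Erbb2 at -0.3985, and Cbx7, whose agonist minus tumor-draining mean was 0.3972.

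The comparison of agonist with healthy libraries was not part of the rule, although the same libraries helped choose the members. Its within-prefix difference equals the sum of both differences that the rule limited. The tumor-draining libraries are not compared here, but they enter the fit that estimates the spread, and so the p-values. The comparison asks whether the members' levels under agonist stood at, above or below those of healthy nodes. The median within-prefix difference was 0.08 over the members (-0.91 to 1.19) and -0.03 over all protein-coding genes tested. The mean within-prefix difference was above 0 in 72 members and below 0 in 34. Agonist was above healthy in 4 of 4 prefixes in 19 members, below it in 4 of 4 in 7, and mixed in 80. The same counts over all protein-coding genes are not given, so nothing is read from these. With edgeR's quasi-likelihood test and Benjamini-Hochberg adjustment over all 23729 genes, 5 members passed an adjusted p of 0.05, 4.72% of the members, against 6.28% of all genes tested and 8.48% of the protein-coding ones. By direction the fit called 4.25% of all genes higher and 2.03% lower. The share of members called was no higher than the background. The rule required both differences that make up this comparison to have opposite signs, so they partly offset each other. Nothing is therefore read from the share of members called or from the members' median difference.

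Of these, 4 rose with agonist above healthy: Ccl5 (log2 fold change 1.23, SE 0.26, adjusted p = 0.0111), Xcl1 (log2 fold change 1.26, SE 0.31, adjusted p = 0.0235), Marco (log2 fold change 0.72, SE 0.19, adjusted p = 0.0366) and Spata31d1b (log2 fold change 1.17, SE 0.32, adjusted p = 0.0483). All 4 were higher in 4 of 4 prefixes. Cxcr6 fell below healthy (log2 fold change -0.93, SE 0.23, adjusted p = 0.0239) and was lower in 4 of 4 prefixes. Ccl5 remained past the threshold in every refit that left out 1 library, with adjusted p between 0.00866 and 0.0497, while each of the other 4 lost its call in some: Marco without any 1 healthy library or without agonist replicate 1 or 3, Xcl1 without agonist replicate 3 or 4 or healthy replicate 2, 3 or 4, Cxcr6 without agonist replicate 1, 2 or 4 or healthy replicate 2 or 3, and Spata31d1b in all but 2 of the 12 refits (adjusted p up to 0.135). With the title prefix as a block 16 members passed (15.1%), 15 higher and 1 lower, against 20.1% of all genes (11.7% higher and 8.46% lower).

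The block added 11 members, all higher with agonist: Il15 (adjusted p = 0.00496 with the block and 0.0804 without, edgeR), Il15ra (0.00445 and 0.0887), Prf1 (0.0131 and 0.244), Klrc1 (0.0261 and 0.296), Il23r (0.0262 and 0.218), Cacna1b, Kcna2, Rnf152, Slc27a3, Slc45a3 and Strip2. In the fit without the block the log2 fold change, agonist over healthy, was 0.82 (SE 0.26) for Il15 and 0.96 (SE 0.31) for Il15ra. The well-counted members Net1 (log2 fold change 0.12, SE 0.17, adjusted p = 0.811), Synpo2 (log2 fold change 0.41, SE 0.28, adjusted p = 0.547), Cblb (log2 fold change -0.08, SE 0.21, adjusted p = 0.908) and H2-M2 (log2 fold change -0.21, SE 0.21, adjusted p = 0.711) did not pass in either fit. The signs of Net1 and Cblb changed when single libraries were left out.

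In the wider lists, with their members counted, 5 of 11 cytotoxic effector genes rose above healthy in the fit without the block (Ccl5, Gzma, Gzmb, Ifng and Xcl1). Of 8 common gamma chain cytokine receptors 3 rose (Il21r, Il2ra and Il4ra), of 12 migratory dendritic cell markers 6 rose (Ccl17, Ccl22, Ccr7, Cd200, Fscn1 and Relb), of 18 type I interferon genes 16 rose, and of 12 node macrophage markers 8 rose and 2 fell (Adgre1 and Cd163). Of 15 T cell markers 5 fell (Bcl11b, Cd3d, Cd3g, Lef1 and Themis), of 12 natural killer markers Tbx21 rose and Klrd1 fell, and among innate-like T cell markers Rora rose while Cxcr6 fell.

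**Figure D3:**
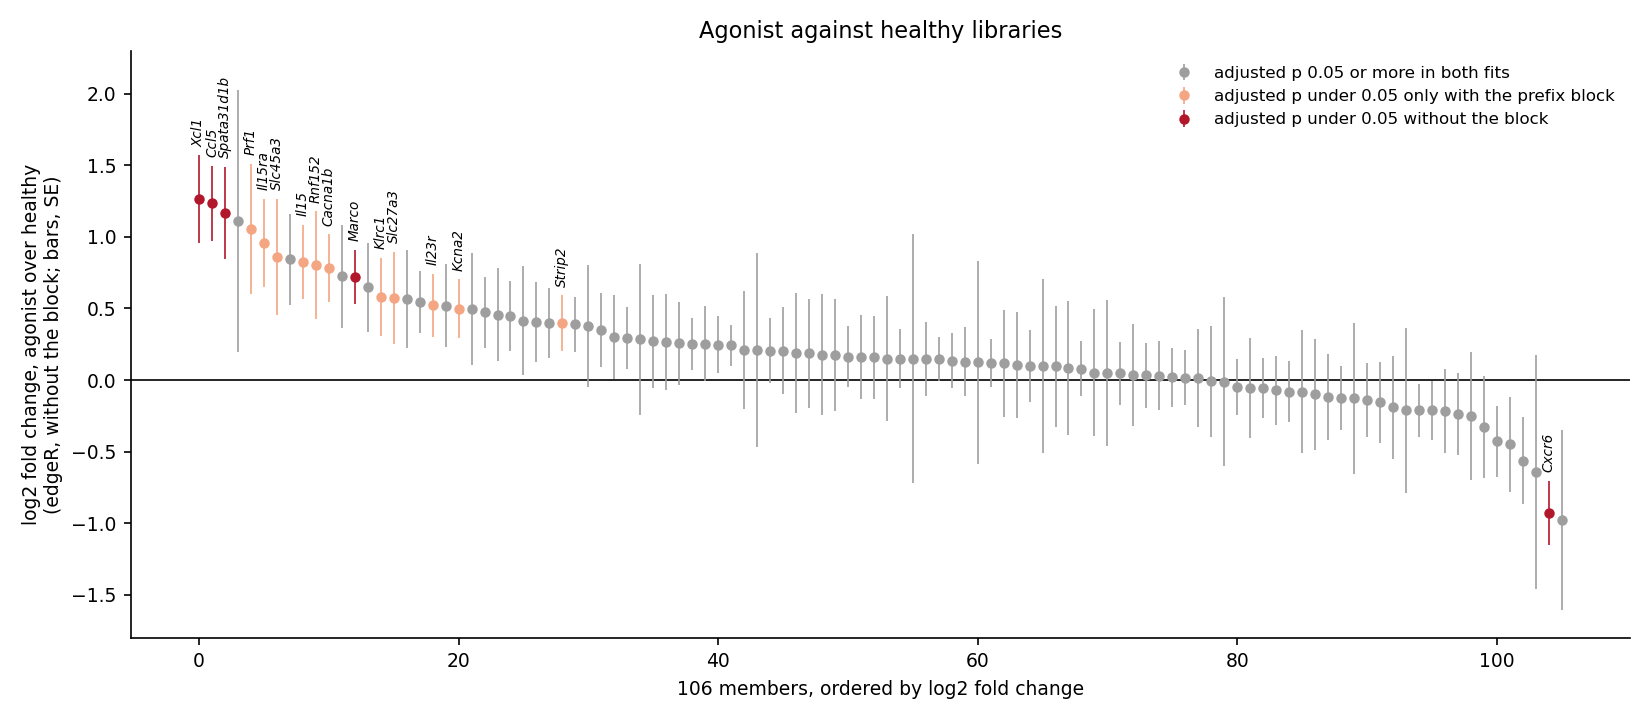
Log2 fold change of agonist over healthy libraries for the 106 members, in order of size, from the edgeR fit without the block; bars are SE. Red points are the 5 members with adjusted p under 0.05 in that fit, light points the 11 that passed only with the title prefix as a block, and grey points the rest; most members lie within 1 log2 unit of 0.

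In the same fits the contrasts used by the rule called 19 members higher in agonist minus tumor-draining, where 1.85% of all genes were called higher, and 3 members (Cxcr6, Gzmc and Il23r) lower in tumor-draining minus healthy, where 0.0169% of all genes were called lower. With the block these were 79 members (6.74% of all genes) and 37 members (2.28%). The rule used both contrasts, so nothing is read from these counts. By overlap alone, every agonist library lay above every tumor-draining library in 37 members (6.8% of protein-coding genes tested), and every tumor-draining library lay below every healthy library in 16 (2.12%).

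The rule compares libraries within a prefix and not prefixes with each other. The prefix means include the tumor-draining libraries by which the members were chosen, so the values between prefixes are not independent of that choice. Of the members 58 differed between prefixes in edgeR's quasi-likelihood F test (54.7%), against 45.1% of all genes tested and 46.5% of protein-coding genes, a share not far above the background. The spread was wider, with a median range between prefix means of 0.74 on the log2 scale over the members and 0.36 over the protein-coding genes tested. These were not matched for level, whose median was 7.06 CPM in the members and 15.6 CPM in the protein-coding genes tested. As to where they peaked, of the 58 members 26 were highest in replicate 1 and 20 in replicate 2, together 79.3%, with 5 highest in replicate 3 and 7 in replicate 4. Of the 7355 protein-coding genes called, 34.6% were highest in replicate 1 or 2. Rdh5, a retinol dehydrogenase, had the smallest adjusted p (1.84e-04, edgeR) and averaged 4.88 CPM in replicate 1, 4.71 CPM in replicate 2, 1.42 CPM in replicate 3 and 2.15 CPM in replicate 4 over the 3 groups. Slc27a3, Catsperg1 and Fam196a were also among the 5 members with the smallest p in that test.

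Prf1 and Ncr1 peaked in replicates 3 and 4 instead. Prf1 averaged 4.76 CPM in replicate 1, 5.64 CPM in replicate 2, 12.01 CPM in replicate 3 and 12.01 CPM in replicate 4 (adjusted p = 0.00178, edgeR), and Ncr1 averaged 7.1, 6.73, 11.6 and 10.4 CPM in the same order (adjusted p = 0.0166, edgeR). The valley itself also varied with prefix. The members' median agonist minus tumor-draining difference was 0.54 in replicate 1, 0.48 in replicate 2, 0.87 in replicate 3 and 0.81 in replicate 4, and the tumor-draining minus healthy median was -0.65, -0.69, -0.64 and -0.32. The agonist minus healthy median was -0.10, -0.16, 0.19 and 0.43, so the members' agonist levels lay slightly below healthy in replicates 1 and 2 and above it in replicates 3 and 4. Over all protein-coding genes tested each of these medians lay between -0.06 and 0.03.

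The noncoding RNA Malat1, which stays in the nucleus, was lowest in the tumor-draining library of every prefix, as the members were by the rule. Most of the nuclear noncoding RNAs listed with it did not have the members' signs. It made up 2.44%, 2.09%, 0.704% and 1.15% of counts in the agonist libraries, 1.68%, 1.25%, 0.417% and 0.603% in the tumor-draining libraries, and 2.395%, 2.46%, 0.767% and 0.835% in the healthy libraries. It was lowest in replicate 3 in every group. Its within-prefix difference averaged 0.74 for agonist minus tumor-draining and -0.71 for tumor-draining minus healthy. Tumor-draining replicate 3, the lowest of the 12 libraries for Malat1, was also the lowest of the 12 for 72 of the 106 members. Tumor-draining replicate 4 was the lowest for 20, replicate 1 for 12 and replicate 2 for 2. By the rule the lowest of the 12 libraries is a tumor-draining one in every member. The same counts over all protein-coding genes are not given, so nothing is read from them. Of the 8 nuclear noncoding RNAs of its list 3 had both mean differences signed as in the members. The list's median was -0.03 for agonist minus tumor-draining and -0.48 for tumor-draining minus healthy. The part of RNA composition in the members' profile was not tested.

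**Figure D4:**
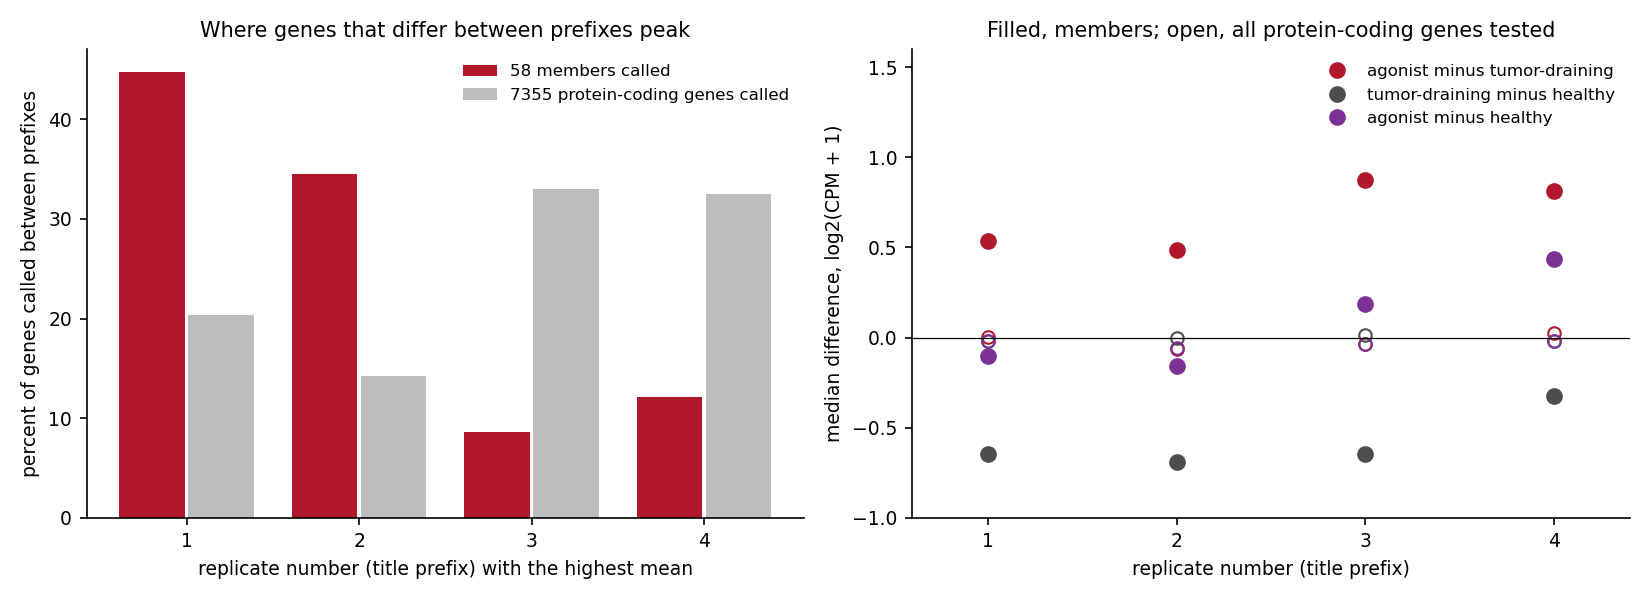
Left, the replicate number (title prefix) at which genes that differed between prefixes had their highest mean, as percent of the 58 members and of the 7355 protein-coding genes called; replicates 1 and 2 hold 79.3% of the members and 34.6% of the genes. Right, median within-prefix difference on the log2(CPM + 1) scale for members (filled) and all protein-coding genes tested (open) in each prefix; the open points lie near 0 and the filled agonist minus healthy points lie below 0 in replicates 1 and 2 and above it in replicates 3 and 4.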

How the data were processed

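RNA of CD11c cells was made into directional libraries, per the labels' protocols. The authors deposited estimated counts per transcript, not normalized, and TPM values, both from Salmon on mm10 per the submitters' processing notes; the sources used here do not give its version or annotation, and the deposited count table is named for Sailfish. Here 131974 of 132374 transcripts were matched by identifier to GENCODE M21 and summed to 52355 genes; the 400 unmatched transcripts held 0.116% to 0.147% of counts. CPM used the column totals.

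Estimated counts were rounded and tested with edgeR 4.0.16 (TMM, filterByExpr with a minimum count of 10, robust quasi-likelihood, Benjamini-Hochberg over 23729 genes), in 1 fit of 12 libraries by group, with 9 residual degrees of freedom, or 6 with title prefix as a block. Same-prefix libraries deviated together: their correlation was 0.204 to 0.473 over 12 pairs, against a median of -0.235 over 36 other pairs, so the prefix was taken to pair libraries, although the sources used here do not give its meaning. DESeq2 1.42.0 was an alternative. The fits were tested on simulated data.

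The members and the 37 gene lists were chosen with earlier results of these data known. Named genes were the 12 members with the highest mean CPM, the 12 with the largest smaller difference, list members, called members, the 5 with the smallest prefix p, and those nearest the limits. Il15, Klrc1, Crtam, Sytl3, Slamf1, Pvr, Cd209b, the channel subunits, Wnt genes, neighbors and other members named only by kind were chosen after their values were seen. A few genes are not reported here. Promoter sequences are RefSeq's, on GRCm38.p6.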

Additional observations from a re-analysis of the deposited data

Results flagged for a closer look

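In 4 of 123 groups of 4 libraries checked over the named members, 1 library stood far from the other 3 of its group. Chance gives about 1 in 20 such groups. Clu had 732 CPM in agonist replicate 4, against 230.7 to 299.8 CPM in the other agonist libraries. Without that library its log2 fold change, agonist over healthy, was 0.26 in place of 0.84, and neither passed the threshold (edgeR, adjusted p = 0.633 and 0.165). Strip2 had 170.1 CPM in agonist replicate 3, against 251.2 to 259.6 CPM in the other agonist libraries. Spata31d1b had 5.579 CPM in tumor-draining replicate 3, against 12.44 to 13.32 CPM in the other tumor-draining libraries. Olfr108 had 5.302 CPM in healthy replicate 2, against 0.6803 to 1.438 CPM in the other healthy libraries, and without it its log2 fold change, agonist over healthy, was -0.03 in place of -0.98, neither past the threshold (edgeR, adjusted p = 0.996 and 0.509).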

How the results depend on the processing

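The number of members depended on the settings of the rule. A pseudocount of 0.5 gave 169 and a pseudocount of 2 gave 66, a mean difference of 0.3 gave 220 and one of 0.6 gave 23, and leaving out 1 prefix in all groups gave 125 to 191. TMM-scaled CPM gave 90 members, 77 of them shared, and deposited TPM gave 87, 53 of them shared. For agonist minus healthy, 1490 genes were called, 4781 with the prefix block, 2154 by DESeq2 and 829 to 1535 without 1 library, the lowest without healthy replicate 3 and 891 without agonist replicate 3. Members called were 5, 16 with the block, 8 by DESeq2 and 1 to 6 without 1 library. For agonist minus tumor-draining, 635 genes were called, 3161 with the block, 1186 by DESeq2 and 323 to 547 without 1 library. For tumor-draining minus healthy, 47 genes were called, 1495 with the block, 75 with no filter, 368 by DESeq2 and 0 to 101 without 1 library. The edgeR counts of 0 came without healthy replicate 1, 3 or 4, where 1301, 2251 and 2063 genes had an unadjusted p under 0.05. Members that differed between prefixes were 58, and 37 to 64 without 1 library, the lowest without healthy replicate 3. Of 574 alternative values of the named members' agonist over healthy change, 541 stayed on the same side of the threshold, 26 lost the call and 7 gained it. The sign changed in 43 of the 541, over 18 members, to values between -0.27 and 0.26, and none of these 43 was called with or without the alternative. For most of these changes the cause was not tested; fits without 1 library have fewer samples. Levels under 2 CPM, in 17 members, rest on few counts and move most with the pseudocount.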

Other observations

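The 3 members Clca3a2, Cldn3 and Irx2, chosen after their values were seen, had the lowest value of each group in replicate 4. So had other members, among them Wnt5a, Ntn1, Mme, Fxyd3 and Klhdc7a, while Wnt6 had its highest value of each group there. Clca3a2, a secreted protein of the CLCA family, had 9.65, 8.93, 17.7 and 3.11 CPM in agonist libraries, 3.69, 3.42, 1.19 and 0.116 CPM in tumor-draining libraries and 7.59, 4.61, 7.18 and 0.281 CPM in healthy libraries. Cldn3, a tight junction claudin, had 3.13, 1.68, 2.36 and 0.495 CPM in agonist libraries, 1.35, 1.13, 1.17 and 0.0207 CPM in tumor-draining libraries and 2.61, 1.69, 2.87 and 0.103 CPM in healthy libraries. Irx2, a homeodomain transcription factor, had 1.25, 1.06, 1.902 and 0.31 CPM in agonist libraries, 0.241, 0.871, 0.355 and 0.0207 CPM in tumor-draining libraries and 3.62, 1.07, 2.72 and 0.165 CPM in healthy libraries. Within replicate 4 Clca3a2, Cldn3 and Irx2 followed the order agonist, healthy, tumor-draining, at levels where the pseudocount sets the size of the log2 difference. That tumor-draining is lowest follows from the rule. Agonist lay below healthy in replicates 2 and 3 for Cldn3 and in replicates 1, 2 and 3 for Irx2.

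The predicted gene Gm20721 had 26.9, 21.9, 36.4 and 56.6 CPM in agonist libraries, 16.7, 11.1, 5.57 and 42.6 CPM in tumor-draining libraries and 16.8, 21.03, 17.2 and 81.7 CPM in healthy libraries, with replicate 4 the highest library of each group. The 106 members included 14 genes on chromosome 7 (13.2%), where 8.35% of the protein-coding genes tested lie. Chromosomes 1 and 4 held 10 members each (9.43%), against 5.92% and 6.06% of the genes tested. These shares were not tested.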
